A study of Mus musculus with 2 samples.

Results

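The genes described here are 10 phosphatases of the dual-specificity family that switch off MAP kinases, *Dusp1*, *Dusp2*, *Dusp4*, *Dusp5*, *Dusp6*, *Dusp7*, *Dusp8*, *Dusp10*, *Dusp14* and *Dusp16*, out of 22028 protein-coding genes. They were chosen by symbol in the GENCODE M21 annotation of the mouse genome build GRCm38, and every H3K4me3 peak that overlapped the gene body or lay within 1000 bp of a transcript start of the gene was taken. By this rule 14 of 42126 listed peaks belonged to them in lung cells of adult offspring of control mothers (F1PBS) and 9 of 51610 in those of adult offspring of asthmatic mothers (F1OVA).

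The series profiled H3K4me3, a histone mark of active and poised transcript starts, in group 2 innate lymphoid cells (ILC2s) of the adult lung with CATCH-seq, a carrier-assisted native ChIP-seq that needs few cells and fragments chromatin enzymatically. C57BL/6J females in the asthmatic group received ovalbumin (OVA) with alum by intraperitoneal injection (100 µg) and OVA intranasally (500 µg) between gestation days 4 and 17, and control females received PBS with alum and PBS intranasally on the same schedule. About 3000 ILC2s, which carry CD45 and ST2 and lack lineage markers, were sorted from the lungs of offspring about 8 weeks old (7 to 9 weeks), and the labels name no challenge of the offspring themselves. There was 1 library per group, from a single dam per group, so a litter, a library and the treatment of the mother cannot be told apart, and no difference below has a test or a replicate error.

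MAP kinases (ERK, JNK and p38) are activated by phosphorylation of a threonine and a tyrosine in the same loop, and dual-specificity phosphatases remove both phosphates. Many of these phosphatase genes are themselves turned on by the kinases they silence, which makes them feedback brakes whose subcellular place and preferred kinase differ. In ILC2s, signals from IL-33 and other alarmins reach cytokine genes partly through ERK and p38.

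The sort was checked against marker genes. In F1PBS 9 of 12 ILC2 markers had a start peak, against 50.9% of all protein-coding genes. In F1OVA 6 of 12 had one, near the 41.9% of all protein-coding genes. *Il1rl1* (the gene of ST2), *Rora* and *Il2ra* had a start peak in both lists, and *Gata3* and *Il7r* in F1PBS alone. The ILC2 markers *Klrg1*, *Icos* and *Il13* had none in either list. No listed marker of T cells, B cells, macrophages, neutrophils or fibroblasts had a start peak in either list. *Epcam* (epithelium) and *Kdr* (endothelium) had a start peak in F1PBS alone. By the caller's −log10 q, the *Epcam* peak (699 bp) was no weaker than 85.65% of the peaks in that list, and the *Kdr* peak (272 bp) no weaker than 4.71%. The same value was 87.99% for *Il2ra*, 64.07% for *Il1rl1* and 24.76% for *Gata3*. The part of such epithelial and endothelial cells in the values below was not tested. The 2 lists also differed as a whole, with a median peak width of 315 bp in F1PBS and 249 bp in F1OVA, so the counts, median widths and median ranks of the phosphatases are set beside those of all protein-coding genes.

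A start peak was listed at 9 of the 10 phosphatase genes in F1PBS, where 50.9% of protein-coding genes had one, and at 5 of the 10 in F1OVA, where 41.9% had one. *Dusp1*, *Dusp2*, *Dusp7*, *Dusp10* and *Dusp14* had a start peak in both lists. *Dusp5*, *Dusp6*, *Dusp8* and *Dusp16* had one in F1PBS alone, *Dusp4* had no peak in either list, and none had one in F1OVA alone. Genes of the last kind were rare everywhere, since 9068 of the 9227 protein-coding genes with a start peak in F1OVA also had one in F1PBS. Of all protein-coding genes with a start peak in F1PBS, 19.1% had none in F1OVA, against 4 of 9 phosphatase genes. The highest −log10 q, the peak caller's measure of how far a peak stands above its background, lay between 8 and 12 for 7 of the 9 genes in F1PBS, and among all genes in that range 25.3% had no start peak in F1OVA, against 4 of these 7. *Dusp5* is among these 4 only by the 1000 bp limit. Within 2000 bp of a start, 6 of the phosphatase genes had a start peak in both lists, and the shares over all genes were not computed at that distance.

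**Figure D1:**
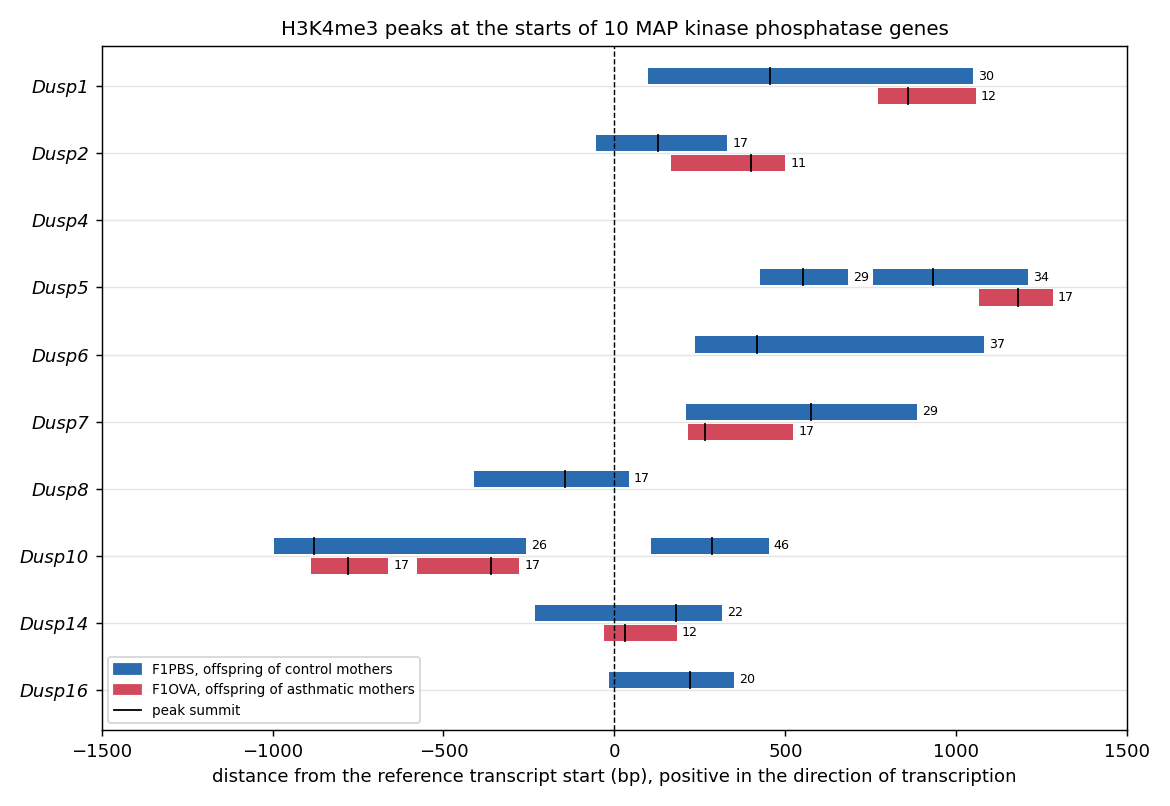
H3K4me3 peaks (bars) near the reference transcript start of each gene, in bp along the direction of transcription, with the peak summit as a black line and the number of fragments at the summit beside each bar. Bars of F1PBS are listed at 9 genes, and bars of F1OVA are absent from *Dusp6*, *Dusp8* and *Dusp16*, given by a short bar beyond 1000 bp at *Dusp5*, and absent from the downstream side of *Dusp10*.

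The promoter stretches of the 4 genes with a start peak in 1 list only, and of *Dusp10*, which had the widest joined domain, are shown because their start peaks differ between the lists. Each is the part of the 250 bases before the RefSeq start that lies outside the exons of the gene (RefSeq, build GRCm38.p6), read 5′ to 3′ in the direction of transcription. The stretches of *Dusp5*, *Dusp6* and *Dusp10* lie outside the listed peaks. That of *Dusp16* reaches its F1PBS peak only at the end next to the start, and that of *Dusp8* lies wholly under its F1PBS peak. Capitals mark matches, on either strand, to a cyclic AMP response element (CRE, TGACGTCA, the site of CREB and ATF factors), a GC box (GGGCGG, the site of Sp1) or a CArG box (the site of serum response factor).
*Dusp5*, chr19:53528895-53529108, plus strand: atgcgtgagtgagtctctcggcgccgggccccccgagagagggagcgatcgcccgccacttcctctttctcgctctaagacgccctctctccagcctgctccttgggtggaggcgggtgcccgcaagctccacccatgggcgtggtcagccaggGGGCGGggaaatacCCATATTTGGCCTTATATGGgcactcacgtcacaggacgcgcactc
*Dusp6*, chr10:99262981-99263230, plus strand: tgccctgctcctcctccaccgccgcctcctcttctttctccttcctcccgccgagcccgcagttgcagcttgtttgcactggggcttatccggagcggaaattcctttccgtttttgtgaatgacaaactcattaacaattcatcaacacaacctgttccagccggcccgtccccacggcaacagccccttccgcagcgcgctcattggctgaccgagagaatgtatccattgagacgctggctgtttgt
*Dusp8*, chr7:142095285-142095534, minus strand: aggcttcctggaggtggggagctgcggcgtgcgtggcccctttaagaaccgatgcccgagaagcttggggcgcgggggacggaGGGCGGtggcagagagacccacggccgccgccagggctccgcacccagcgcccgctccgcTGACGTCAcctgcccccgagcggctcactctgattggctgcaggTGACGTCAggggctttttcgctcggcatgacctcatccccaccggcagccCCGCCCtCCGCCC
*Dusp16*, chr6:134792629-134792878, minus strand: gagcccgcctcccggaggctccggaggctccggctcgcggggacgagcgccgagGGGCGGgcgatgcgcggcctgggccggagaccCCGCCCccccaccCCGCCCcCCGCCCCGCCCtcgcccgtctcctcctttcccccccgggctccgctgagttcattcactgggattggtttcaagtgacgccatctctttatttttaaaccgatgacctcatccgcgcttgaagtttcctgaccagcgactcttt
*Dusp10*, chr1:184034131-184034380, plus strand: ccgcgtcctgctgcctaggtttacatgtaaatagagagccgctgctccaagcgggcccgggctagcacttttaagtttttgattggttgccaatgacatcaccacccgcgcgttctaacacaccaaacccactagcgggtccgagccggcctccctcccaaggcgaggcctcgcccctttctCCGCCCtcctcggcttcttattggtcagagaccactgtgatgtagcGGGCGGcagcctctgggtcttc

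The 9 phosphatase genes with a RefSeq promoter entry were rich in GC and CpG. Their median GC content over the 300-base promoter entry was 68.7%, against 52.7% over 32841 promoters, and their median ratio of observed to expected CpG was 0.855, against 0.384. A GC box was found in 8 of 9, all but *Dusp6*, and in 35.7% of all promoters. The CRE was found in *Dusp1* (position −143 from the RefSeq start) and at a pair of places in *Dusp8* (positions −107 and −63), and in 1.79% of all promoters. Adjacent CArG boxes stood in *Dusp5* (positions −82 and −72), and 1.63% of all promoters held such a box. An AP-1 site (TGANTCA, in 7.81% of all promoters), a TATA box (TATAAA, in 8.32%, given strand only) and a glucocorticoid response element (the inverted-repeat site of the glucocorticoid receptor, in 0.00913%) had no match in the 9 windows, which says only that these letters are not there. A match is a run of letters and not evidence of binding.

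The nuclear, signal-induced phosphatases come first. *Dusp1* (MKP-1), which acts on p38 and JNK and is a classical glucocorticoid-induced gene, lies on chromosome 17, minus strand, at chr17:26505590-26562128. Its annotated starts fall in 2 places. At the starts next to the coding exons, F1PBS had 1 peak of 950 bp at chr17:26507424-26508373, over exons 1 and 2, with a −log10 q of 11.4 and 30 fragments at the summit (exact Poisson 95% interval 20.2 to 42.8). Offspring of asthmatic mothers had there a peak of 286 bp at chr17:26507416-26507701, in exon 2, with a −log10 q of 3.18 and 12 fragments (6.2 to 21). That peak began 771 bp downstream of the reference start, whereas the control peak began 99 bp downstream of it, so the part over exon 1 was listed in F1PBS alone. The percentile of the peak by −log10 q, that is the share of peaks in its own list that were no stronger, was 73.95 in F1PBS and 1.66 in F1OVA.

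The far upstream starts of *Dusp1* behaved otherwise. There the peaks were chr17:26561471-26561899 in F1PBS (429 bp, −log10 q 16.5, 28 fragments) and chr17:26561466-26561845 in F1OVA (380 bp, −log10 q 12.8, 22 fragments). Their percentiles were 89.43 and 89.03, so rank hardly differed. These starts stand beside the divergent start of *Ergic1*, and the mark of one gene cannot be told apart there from that of the other. The higher *Dusp1* peak of both lists is this shared one, and the values at the coding exons are the ones that describe *Dusp1* alone.

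*Dusp2* (PAC-1), a nuclear phosphatase of immune cells with a preference for ERK and p38, had a peak at chr2:127336104-127336488 in F1PBS (385 bp, −log10 q 8.34, 17 fragments) and at chr2:127336323-127336659 in F1OVA (337 bp, −log10 q 4.38, 11 fragments). The widths were near each other, with a ratio of 1.14, but the place was not the same. The summit lay 127 bp downstream of the start in F1PBS and 398 bp downstream in F1OVA, and both peaks overlapped exon 1. The percentile was 54.95 against 13.0. *Dusp4* (MKP-2), the close relative of *Dusp1*, at chr8:34807297-34819894 on the plus strand, had no peak over its body or within 1000 bp of its start in either list.

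*Dusp5*, a nuclear phosphatase that acts on ERK alone, had 2 peaks at its start in F1PBS, chr19:53529535-53529791 over coding exon 1 and chr19:53529866-53530318 in intron 1. They were joined to a domain of 784 bp, since peaks at most 1000 bp apart were joined. Their −log10 q were modest, 9.14 for the higher one, although the summits held 29 and 34 fragments, at percentiles 83.28 and 93.86 of all summits of the list by fragments. The caller's local background was 7.88 and 7.73 fragments at these peaks, against a smallest background of 1.83 in that list. In F1OVA the only peak near the start was chr19:53530175-53530391 (217 bp, −log10 q 3.62, 17 fragments), 1066 bp downstream of the start. It overlapped the intron 1 peak of F1PBS and lay just past the 1000 bp limit, so *Dusp5* counts among the genes without a start peak there only by that limit. The antisense gene *AC137853.2* starts within the exon 1 peak and within 1000 bp of the other peaks near the start, and the mark of *Dusp5* cannot be told apart from that of the antisense gene.

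*Dusp5* also held a peak in an intron, far from the start, in both lists. It lay at chr19:53539685-53540080 in F1PBS (−log10 q 11.4, percentile 73.89) and at chr19:53539742-53539971 in F1OVA (−log10 q 13.6, percentile 91.25). Repeats filled 89.6% and 100.0% of these peaks in the reference, and their sequence held no CpG, with a ratio of observed to expected CpG of 0. It was the member peak with the highest percentile in F1OVA.

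The cytoplasmic ERK phosphatases were *Dusp6* and *Dusp7*. *Dusp6* (MKP-3), a feedback target of ERK, had a peak of 846 bp at chr10:99263466-99264311 in F1PBS, which lay over coding exon 1. Its summit held 37 fragments (26.1 to 51.0), at percentile 96.73 of all summits of that list, over a local background of 8.25, and its −log10 q was 10.2. Offspring of asthmatic mothers had no peak anywhere over *Dusp6*. *Dusp7* (MKP-X) had a peak of 678 bp at chr9:106368841-106369518 in F1PBS (−log10 q 10.7, 29 fragments) and of 310 bp at chr9:106368846-106369155 in F1OVA (−log10 q 5.94, 17 fragments), both over coding exon 1. The peaks began 209 and 214 bp downstream of the start and ended 886 and 523 bp downstream of it, so they differed at the far end.

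The local background sets how many fragments a peak needs. In F1PBS the weakest listed summits held 9 fragments where the background was within 0.5 of 2 and 22 where it was within 0.5 of 8, and in F1OVA they held 8 and 21. At *Dusp5* the background of F1OVA was 4.38, not scaled to that of F1PBS, and a peak with 17 fragments was listed. At *Dusp6*, *Dusp8* and *Dusp16*, where F1OVA lists no peak, its background was not measured, and absence from the list is not absence of the mark.

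**Figure D2:**
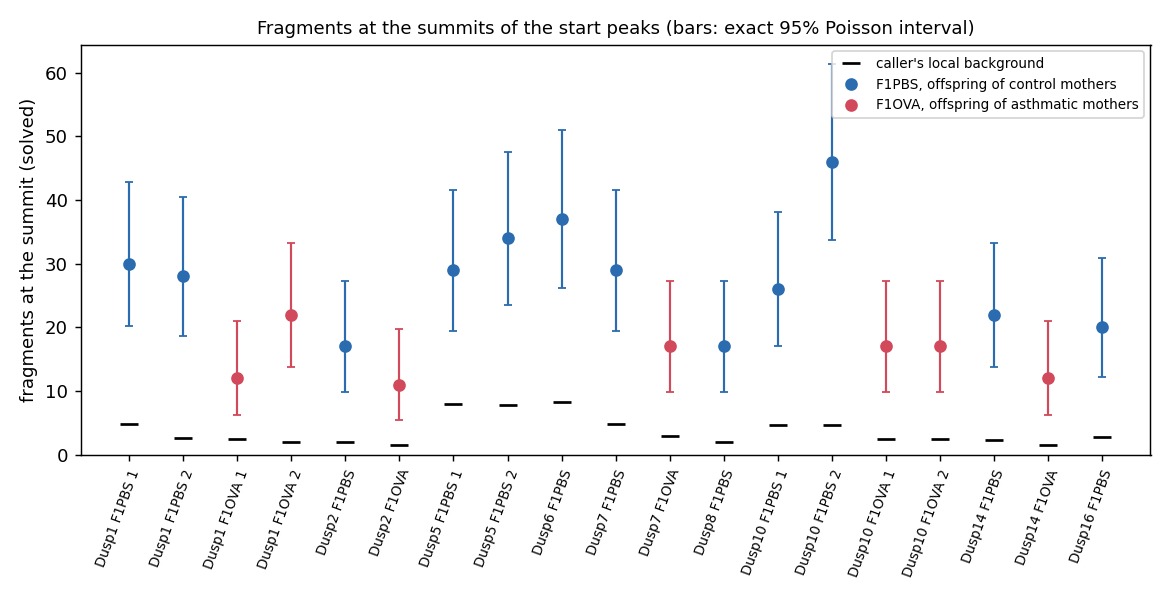
Number of fragments at the summit of each start peak (points, with exact 95% Poisson intervals that cover counting error only) and the caller's local background (black dashes), both solved from the fold and −log10 p of each peak. The second *Dusp10* peak of F1PBS was highest with 46 fragments, and the summits of F1OVA held between 11 and 22.

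The phosphatases of JNK and p38 were *Dusp8*, *Dusp10* and *Dusp16*. *Dusp8* (M3/6) had a peak of 453 bp at chr7:142095230-142095682 in F1PBS (−log10 q 8.22, 17 fragments), which reached from position −410 to 42 around the downstream of its 2 annotated starts, over the printed promoter with its CREs. The other start lies upstream of the peak and within 1000 bp of it, so most of the peak lies between the starts, in an intron of the longer transcript. The noncoding gene *Gm32786* starts nearby, and the mark of either gene cannot be told apart. *Dusp16* (MKP-7) had a peak of 368 bp at chr6:134792275-134792642 in F1PBS (−log10 q 8.48, 20 fragments), over exon 1 at the most upstream starts of the gene. It was the only peak over *Dusp16*. Neither gene had a peak in F1OVA.

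*Dusp10* (MKP-5), a phosphatase of p38 and JNK known in T cells and innate immunity, differed between the sides of its start. In F1PBS 2 peaks flanked the downstream of its 2 annotated starts. The downstream one, chr1:184034488-184034832 over exon 1 (positions 107 to 451 from the start), had a −log10 q of 25.7, rank 724 in its list (percentile 98.28), and 46 fragments at the summit (33.7 to 61.4). The upstream one, chr1:184033386-184034121 (positions −995 to −260), had a −log10 q of 9.04 and 26 fragments. Joined, they spanned 1447 bp, the widest joined domain of the 10 genes. Without joining, the widest *Dusp10* peak was 736 bp in F1PBS, narrower than those of *Dusp1* (950 bp) and *Dusp6* (846 bp), and 299 bp in F1OVA.

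In F1OVA *Dusp10* had peaks on the upstream side alone, chr1:184033494-184033720 and chr1:184033804-184034102, with 17 fragments each and −log10 q of 6.76 at the higher one (percentile 43.16). That side holds starts of the divergent gene *1700056E22Rik*, and the downstream peak also lies within 1000 bp of a start of that gene, so by distance neither side can be given to *Dusp10* alone. No peak of F1OVA overlapped the downstream peak. Among peaks of F1PBS at coding starts with a −log10 q of at least 20, a limit chosen after this peak was seen, 36 of 1440 (2.5%) overlapped no peak of F1OVA, and the *Dusp10* peak was the only member peak in that range. Repeats filled 42.0% of the downstream peak in the reference, but the bases around its summit had no second copy in the genome. The far upstream start had no peak, and a weak peak in an intron at chr1:184049005-184049240 (−log10 q 6.21, 14 fragments) was listed in F1PBS alone.

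*Dusp14* (MKP6), a small atypical phosphatase without the kinase-binding domain of the others and known as a brake on T cell receptor signals, had a peak of 546 bp at chr11:84068043-84068588 in F1PBS (−log10 q 11.9, 22 fragments) and of 214 bp at chr11:84068175-84068388 in F1OVA (−log10 q 5.17, 12 fragments). The shorter peak lay wholly inside the longer one and covered 39.2% of it.

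Across the 5 genes with a start peak in both lists, the joined domain was wider in F1PBS at 5 of 5. This count says little about the phosphatases, since the domain was wider in F1PBS at 92.2% of the 9068 protein-coding genes with a start peak in both. It was at least 1.5 times as wide at 4 of 5, all but *Dusp2*, against 50.5% of those genes. The ratio of widths was 2.5 at *Dusp1*, 1.14 at *Dusp2*, 2.19 at *Dusp7*, 2.38 at *Dusp10* and 2.55 at *Dusp14*, with a median of 2.38 against 1.51 over the 9068 genes. The *Dusp1* ratio sets the peak at its coding exons in F1PBS against the *Ergic1*-side peak in F1OVA, because each was the widest of its list. Matched by place, the ratio at *Dusp1* was 3.32 at the coding exons and 1.13 beside *Ergic1*, so by the latter place *Dusp1* would leave the count of 4.

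**Figure D3:**
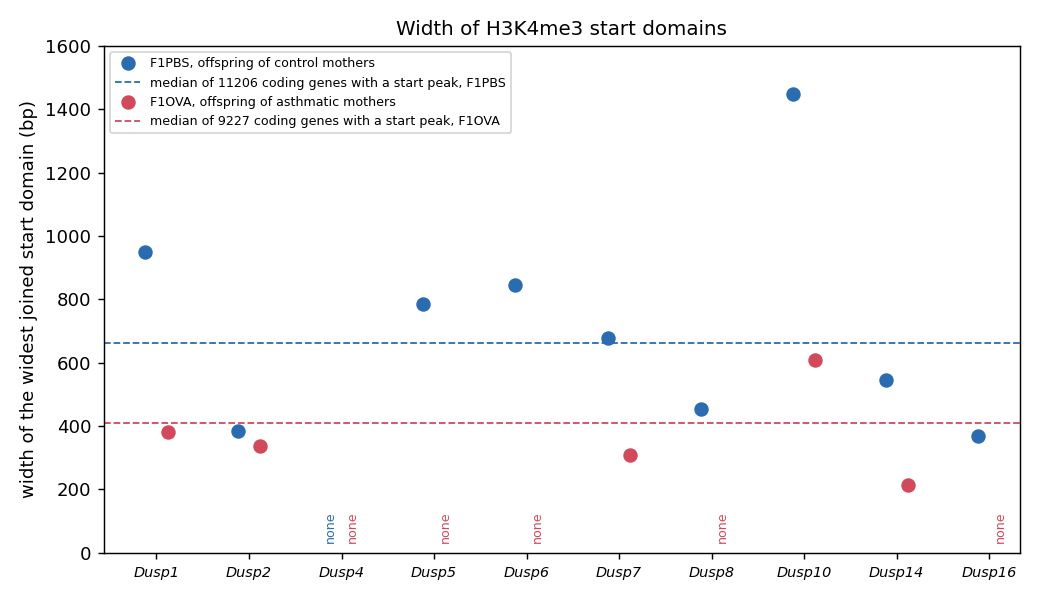
Width in bp of the widest joined start domain of each gene in F1PBS (blue) and F1OVA (red), with dashed lines at the median over protein-coding genes with a start peak in that list (663 and 409 bp). Widths ran from 368 to 1447 bp in F1PBS and from 214 to 609 bp in F1OVA, and "none" marks genes without a start peak.

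The median joined width was 678 bp over the 9 genes in F1PBS, near the 663 bp of all protein-coding genes with a start peak, and 337 bp over the 5 genes in F1OVA, below 409 bp. The start peaks of the lists overlapped by at least 1 bp at 5 of 5 genes, against 99.2% of protein-coding genes. They covered at least 50% of each other at 1 of 5, against 69.9%. That gene was *Dusp1*, by its *Ergic1*-side peaks, while at *Dusp2*, *Dusp7*, *Dusp10* and *Dusp14* the overlap with a single F1OVA peak covered between 39.2% and 45.7% of the peak of F1PBS. At *Dusp7*, *Dusp10* and *Dusp14* that F1OVA peak lay wholly inside the F1PBS peak (100.0%), so there the count repeats the difference in width. At *Dusp2* 49.3% of the F1OVA peak was shared. At *Dusp10* the 2 peaks of F1OVA together covered 71.5% of the upstream peak of F1PBS.

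The start peaks were also ranked within their lists. By −log10 q the median percentile of the highest start peak was 68.23 over the 9 genes in F1PBS, against 82.75 over all protein-coding genes with a start peak, and 31.6 over the 5 genes in F1OVA, against 60.64. The percentile was higher in F1PBS at 5 of 5 genes, against 86.3% of genes with a start peak in both lists. The count was 4 of 5 under each of 3 other rankings, by fold (73.7% of those genes), by peak width (67.8%) and among genes with a start peak (57.3%). *Dusp1* was higher in F1OVA by fold (89.49 against 91.62) and among genes with a start peak (68.81 against 90.64), and *Dusp2* by peak width (63.67 against 71.82). By −log10 q over all peaks, the difference in percentile was 55.1 at *Dusp10*, 52.4 at *Dusp14*, 42.0 at *Dusp2*, 38.4 at *Dusp7* and 0.399 at *Dusp1*, with a median of 42.0 against 20.6 over those genes. Among genes with a start peak the median difference was 8.52 against 4.24, so its size depends on what the peaks are ranked among.

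These differences set the highest peak of each list side by side, and at *Dusp1* and *Dusp10* place matters. At the coding exons of *Dusp1*, away from *Ergic1*, the overlapping peaks differed by 72.3 percentile points in place of 0.399. At *Dusp10* the value of 55.1 sets the downstream peak of F1PBS against an upstream peak of F1OVA, and the overlapping upstream peaks differed by 17.9. These matched differences were not computed over all genes. By its highest start peak *Dusp10* was first among the 10 genes in F1PBS and second, after the *Ergic1*-side peak of *Dusp1*, in F1OVA.

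**Figure D4:**
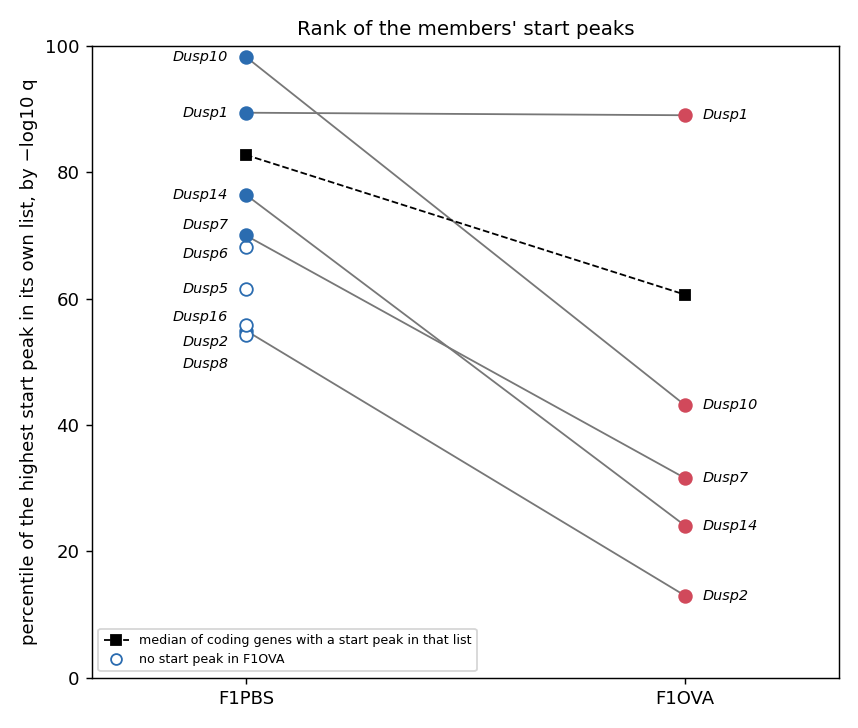
Percentile, by −log10 q, of the highest start peak of each gene within its own list, for F1PBS (left) and F1OVA (right), with open circles for genes without a start peak in the latter and black squares for the median of protein-coding genes with a start peak. The lines of *Dusp2*, *Dusp7*, *Dusp10* and *Dusp14* drop further than the dashed line between the medians, and the flat line of *Dusp1* stands for the peaks beside *Ergic1*, not those at its coding exons (73.95 and 1.66).

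The summits of peaks at coding starts usually lie downstream of the start, over the first nucleosomes of the transcribed side. The highest peak had its summit downstream of the nearest annotated start of any transcript at 75.5% of protein-coding genes in F1PBS and 74.8% in F1OVA. Among the phosphatases this was so at 6 of 9 and 2 of 5, or at 7 of 9 and 3 of 5 when counted from the reference start used for the distances above. The counts from the reference start have no value over all genes beside them. They also class *Dusp1* as upstream by its far *Ergic1*-side summit, which does not describe its reference start. The bases around every member summit had no second copy in the genome.

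Away from the starts, 2 of the 10 genes (*Dusp5* and *Dusp10*) had a gene-body peak in F1PBS, where 15.2% of protein-coding genes had one, and 1 (*Dusp5*, with 2 peaks) in F1OVA, where 17.8% had one.

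The rest of the pathway was described from lists of its other genes. Of 16 other genes of the dual-specificity family, 10 had a start peak in F1PBS and 7 in F1OVA, and *Dusp3*, *Dusp19* and *Dusp28* had one in F1PBS alone. Of 10 MAP kinases 8 and 7 had one, and the p38γ gene *Mapk12* was the only kinase in F1PBS alone. The p38α gene *Mapk14* had the widest kinase domain, 895 bp in F1PBS and 744 bp in F1OVA. Of 18 upstream kinases (MAP2K and MAP3K genes) all 18 had a start peak in F1PBS and 15 in F1OVA, without *Map2k6*, *Map3k8* and *Araf*.

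The kinases that MAP kinases activate were marked throughout, 10 of 10 in both lists. *Mapkapk2*, the p38 effector, had domains of 1025 and 1029 bp, and the ERK effectors *Rps6ka3* and *Rps6ka1* had domains of 996 and 667 bp and of 854 and 731 bp, in F1PBS and F1OVA in turn. Of 12 other inhibitors of the pathway 10 had a start peak in F1PBS and 7 in F1OVA, with *Spry4*, *Spred3* and *Ptpn5* in F1PBS alone. In none of these lists did a gene have a start peak in F1OVA alone. This says little about the pathway, since 9068 of the 9227 protein-coding genes with a start peak in F1OVA also had one in F1PBS. Set side by side, the share of genes marked in F1PBS alone was 4 of 9 for the 10 phosphatases, 3 of 10 for the other dual-specificity genes, 1 of 8 for the MAP kinases, 3 of 18 for the upstream kinases, 0 of 10 for the activated kinases and 3 of 10 for the other inhibitors, against the 19.1% of all genes, and the differences between these lists were not tested. The 4 phosphatases include *Dusp5*, which counts there only by the 1000 bp limit.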

How the data were processed

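Reads of 2 libraries were trimmed by the authors with Trim Galore and Cutadapt, aligned to GRCm38 with Bowtie 2 and freed of duplicates with Sambamba. The caller, its threshold and any use of the input were not given in the sources used here, and the reporting summary says that the authors made no peak calls on this ChIP-seq, so how the lists arose is not known. Each deposited peak has a score, a fold (in the authors' list the ratio of summit signal to background) and the authors' −log10 p and −log10 q. None of these values is scaled between the libraries, so they, and the fragments solved from them, are read within a list. The lists hold no library totals, and the reporting summary gives sequencing depth only as a total, so the depth of each library is unknown.

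Peaks were read on GRCm38, counted from 1, and set against GENCODE M21 starts. Fragments and background at each summit were solved from fold and −log10 p with a Poisson model, assuming no control, and 99.98% and 99.99% of peaks were matched within 0.0005. Poisson intervals cover counting error only. Named pathway genes are, for each list, at most 3: genes with a peak at a start in a single list, then those with the widest F1PBS domain. The members and the lists were chosen with earlier results of these data known. Peak operations and solved fragments were tested on simulated data. The tools were matplotlib 3.10.9, scipy 1.17.1, pandas 2.3.3, numpy 2.4.6 and Python 3.11.15. The coverage tracks were not used here.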

Additional observations from a re-analysis of the deposited data

How the results depend on the processing

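No paired analysis was possible because each group had a single library. Of 63 values over the 10 genes under other settings, 48 stayed within 1.5 times of the reported value and 15 did not. With only 10000 peaks per list, those of highest −log10 p, 3 genes had a start peak in F1PBS and 1 in F1OVA and in both, and there were 0 and 1 peaks away from starts. Peaks away from starts numbered 5 and 5 with the 5′ end of the gene as the only start, 1 in F1OVA within 2000 bp, where *Dusp5* gained its start peak there and the count with a start peak became 6, and 1 there with a −log10 q of at least 5. Ranked among genes with a start peak, the median percentiles were 26.11 and 20.02, and ranked by peak width it was 65.98 in F1OVA. The median difference in percentile was 8.52 among genes with a start peak and 24.3 by peak width, in place of 42.0. Start peaks overlapped by 50% of both at 1 gene. Without joining, the widest *Dusp10* peak was 736 and 299 bp in place of 1447 and 609 bp, and *Dusp1* and *Dusp6* had wider ones in F1PBS. Divided by the smallest peak width of each list, domains were wider in F1PBS at 4 of 5 genes and the ratio of median widths was 1.65 in place of 2.01. Without the far upstream starts of *Dusp1*, a setting chosen after seeing the data, the percentile of *Dusp1* in F1OVA was 1.66 and the medians there were 24.08 and 310 bp. Of 125 values of single genes, 105 stayed within the limit and 20 moved, and by fold the percentiles of *Dusp5* and *Dusp6* were 21.71 and 23.98. The causes were not tested.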

Other observations

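The protein-coding genes most like *Dusp10*, by the Euclidean distance over 4 percentiles (joined width and highest −log10 q in each list) among 9063 genes, were *1700056E22Rik* at a distance of 0, which shares the *Dusp10* domain, then *Mgat4b* at 13.1 and *Rbm14* at 15.2. *Mgat4b* had domains of 1260 and 543 bp and *Rbm14* of 1390 and 660 bp in F1PBS and F1OVA in turn.

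Within 5000 bp of the gene bodies, outside the limits used for the 10 genes, peaks were listed upstream of *Dusp5* at chr19:53526255-53526447 in F1PBS (−log10 q 9.65) and chr19:53526190-53526430 in F1OVA (−log10 q 18.2, percentile 96.62). Peaks past *Dusp7* had a −log10 q of 7.84 and 7.00, and a peak past *Dusp14* had 6.86 in F1OVA alone. Repeats filled 100.0% of each of these peaks.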
